A study of Mus musculus with 12 samples.

Results

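This report describes how the transcriptome of unstimulated J774A.1 macrophages differed between ACAT1 knockout (KO) and wild-type (WT) lines, in functions other than the interferon response. J774A.1 is a mouse macrophage cell line. The comparison took the 3 ACAT1 KO and the 3 WT libraries that the labels give as untreated, which are 6 of the 12 libraries of the series. The other 6 libraries, from both genotypes after 2 hours with 100 ng/ml LPS, served here only as a second set in which the same genes could be read. LPS is a bacterial glycolipid that activates TLR4.

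Both genotypes carried a plasmid for Cas9 and GFP and were grown in DMEM with 10% FBS. KO cells received a guide against exon 4 of Acat1, and WT cells received the plasmid without a guide. GFP-positive cells were sorted and plated at very low density, and the populations that grew out were expanded, so each library stands for 1 such line. A difference between the genotypes therefore also holds whatever else separated the 3 KO lines from the 3 WT lines, and the 2 cannot be told apart in this design.

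ACAT1 is the mitochondrial acetyl-CoA acetyltransferase, or thiolase, that splits acetoacetyl-CoA into acetyl-CoA. It acts in the breakdown of ketone bodies and isoleucine, and it can also run in the direction of ketone body synthesis. Acetyl-CoA feeds the TCA cycle in mitochondria, and in the cytosol it is the starting unit of fatty acids and cholesterol and the donor for protein acetylation. Macrophages are phagocytes that carry many activating and inhibitory receptors, handle large amounts of lipid from the cells they engulf, and depend on lysosomes to digest them.

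The edited exon is shown here because it defines the KO group. Acat1 lies on the minus strand of chromosome 9 of GRCm38, and exon 4 of the 12 exons in the transcript used here spans chr9:53594694-53594789. The exon is 96 bases long and is printed on the gene's strand, taken from the GENCODE transcript.
Acat1 exon 4: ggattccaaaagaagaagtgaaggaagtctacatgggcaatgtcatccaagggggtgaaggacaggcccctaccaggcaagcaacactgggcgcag

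Acat1 was counted at 120.3, 118.5 and 89.8 CPM (counts scaled to a common library size) in the WT lines and at 32.1, 28.6 and 29.1 CPM in the KO lines. Every KO line was below every WT line, by 3.65-fold between the fitted group levels (log2 fold change -1.87, standard error 0.124, adjusted p = 0.00876). Here and below, CPM are scaled by TMM, the log2 fold change is KO minus WT, and the adjusted p is the Benjamini-Hochberg value of edgeR's quasi-likelihood test over 16440 genes. A gene is said to have risen or fallen only where this adjusted p is below 0.05. With 3 lines in each group, an exact permutation test of a single gene can reach p = 0.10 at the lowest.

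The libraries held 56948593 to 127263834 counts each. They carried macrophage transcripts at high levels: Csf1r, the receptor of the macrophage growth factor, was at 1447 to 1882 CPM, the endosomal glycoprotein gene Cd68 at 381 to 496 CPM, and Ptprc, which encodes CD45, at 657 to 808 CPM. Of the marker lists for other cell types, 1 of 8 fibroblast, 1 of 10 T and NK cell, 3 of 8 B cell, 1 of 12 granulocyte and mast cell, and 3 of 10 epithelial and endothelial markers were abundant enough to be tested, and none of them passed the adjusted threshold. Among the 3 tested B cell markers, Cd79a was at 0.034 to 0.16 CPM and Cd22 at 0.19 to 0.56 CPM, near 0. Both were higher in the KO lines at an unadjusted p under 0.05, without overlap of the groups (log2 fold changes 1.16 and 0.77). Levels of the other tested markers are not given here. The adjusted threshold compares the genotypes and does not measure how strongly a marker was expressed. The WT 1 library had 9.32% of its counts on mitochondrially encoded genes, against 2.80 to 4.04% in the others. WT 1, WT 2 and KO 2 carried 0.0201 to 0.0308% of their counts on noncoding genes that lie inside exons of the other strand, against 0.0062 to 0.0068% in WT 3, KO 1 and KO 3. Values within these 2 sets of libraries are given where they bear on a result.

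Of the 16440 genes tested, 314 passed the adjusted threshold (1.91%), 122 of them higher (0.742%) and 192 lower (1.17%) in the KO lines. Members of a list of 186 interferon-regulated genes accounted for 30 of the 192 lower genes and none of the higher ones. They are left out of the called genes described below. The counts and medians of the other gene lists keep any member that is also in this list, and that overlap was not counted. The list need not be complete, so some of the other genes may also respond to interferon. The remaining 284 genes, 122 higher and 162 lower, are the subject of what follows. All 284 had KO and WT values that did not overlap, against 25.8% of all genes, which the choice by p largely fixes. All 284 kept their direction within WT 1, WT 2 and KO 2 and within WT 3, KO 1 and KO 3. This follows from the lack of overlap and is no separate support. The lower genes had the larger changes: 63 of 162 fell by more than 1 log2 unit, with a median of -0.73, whereas 15 of 122 rose by as much, with a median of 0.47.

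The threshold was sensitive to single lines. Leaving out 1 library moved the count of 314 to 17 without WT 1, 7 without WT 2, 522 without WT 3, 24 without KO 1, 34 without KO 2 and 10 without KO 3. At an unadjusted p under 0.05, the threshold that the study's methods state, 1599 genes were higher (9.73%) and 1633 lower (9.93%), together 19.7% of all genes. These shares are the background against which the gene lists below are read. With offsets for gene length and GC content the split at this threshold became 1777 higher and 1102 lower.

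Several of the genes that fell encode surface and signalling proteins of leukocytes. In RNA from whole cultures, fewer cells with a transcript and less of it per cell cannot be told apart. Cd28, a costimulatory receptor best known from T cells, was at 90.4, 67.1 and 60.7 CPM in the WT lines and 12.2, 12.1 and 13.8 CPM in the KO lines. It fell by 2.52 on the log2 scale (standard error 0.159, adjusted p = 0.00876), and the lowest WT line was far above the highest KO line. Acap1, a GTPase-activating protein for the endosomal recycling factor ARF6, had 79.9, 49.7 and 55.7 CPM in WT and 12.2, 11.99 and 12.02 CPM in KO lines. Its change was -2.36 (standard error 0.176, adjusted p = 0.00975), with KO lines that were almost identical to each other and WT lines that were more spread.

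Jag2, a ligand of Notch receptors, was at 11.98, 9.74 and 10.3 CPM in WT and 2.65, 2.59 and 2.59 CPM in KO lines. It fell by 2.03 on the log2 scale (standard error 0.131, adjusted p = 0.00876). Ms4a6c, a tetraspanning membrane protein of myeloid cells, was at 34.1, 33.95 and 27.6 CPM against 11.9, 10.9 and 12.02 CPM, a change of -1.46 on the log2 scale (standard error 0.103, adjusted p = 0.00975). It belongs to a family of similar neighbouring genes, so the division of reads among them is uncertain. Acat1, Cd28, Jag2 and Ms4a6c were the 4 of the 284 genes that passed the adjusted threshold whichever library was left out.

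Ddit4, which encodes REDD1, an inhibitor of mTORC1, was at 85.3, 70.6 and 65.4 CPM in WT and 18.9, 22.6 and 26.7 CPM in KO lines, a change of -1.70 on the log2 scale (standard error 0.152, adjusted p = 0.0124). Neurl3, a ubiquitin ligase also known from inflamed lung epithelium, had 43.0, 51.1 and 49.1 CPM against 9.92, 10.4 and 5.82 CPM. Its log2 fold change was -2.45 (standard error 0.221, adjusted p = 0.0124), and its groups were likewise far apart. Ccnd2, the D-type cyclin that drives entry into S phase with CDK4 and CDK6, had 190.4, 265.7 and 224.5 CPM in WT and 97.2, 96.6 and 80.1 CPM in KO lines (log2 fold change -1.31, standard error 0.138, adjusted p = 0.0175).

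The largest fall among protein-coding genes with a WT mean of at least 1 CPM was that of Igfbp6, a binding protein of insulin-like growth factors, with 1.52 to 2.26 CPM in WT and 0.16 to 0.36 CPM in KO lines (log2 fold change -2.85, standard error 0.344). Osbp2, an oxysterol-binding protein, fell by 2.52 and Ncs1, a calcium sensor, by 2.47 on the log2 scale. Apol9b, Ctla2a and Ly6m fell by 2.45, 2.26 and 2.49, and each has a close paralog that could share its reads. All of these were genes of low abundance.

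Fewer genes rose strongly. Spn, which encodes CD43, the large sialylated mucin of the leukocyte surface, was at 89.2, 90.01 and 97.6 CPM in the WT lines and at 178, 208 and 181 CPM in the KO lines. It rose by 1.04 on the log2 scale (standard error 0.0806, adjusted p = 0.0108) and was the only higher gene to pass the threshold in at least 4 of the 6 fits that each left out 1 library. Irf8, a transcription factor of the macrophage and dendritic cell lineages, rose from 182, 171 and 178 CPM to 252, 260.5 and 266 CPM (log2 fold change 0.55, standard error 0.0579, adjusted p = 0.0175). The 3 libraries of each genotype were close together for both genes.

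The genes with the largest rises were mostly of low abundance. Ptpn14, a phosphatase of the Hippo pathway, was at 5.51, 5.22 and 7.005 CPM in WT and at 45.1, 17.2 and 20.2 CPM in KO lines. It rose by 2.21 on the log2 scale (standard error 0.377, adjusted p = 0.0451), with KO 1 well above the other KO lines. Kank3, a regulator of the actin cytoskeleton, had 6.01, 4.36 and 10.2 CPM against 19.5, 24.1 and 23.9 CPM (log2 fold change 1.71, standard error 0.298, adjusted p = 0.0464). Gpr179, Hdac7, Adgrg1, Myh3, Arhgef37 and Casz1 rose by 1.23 to 1.94 on the log2 scale, and none of them exceeded 5.50 CPM in any library.

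**Figure D1:**
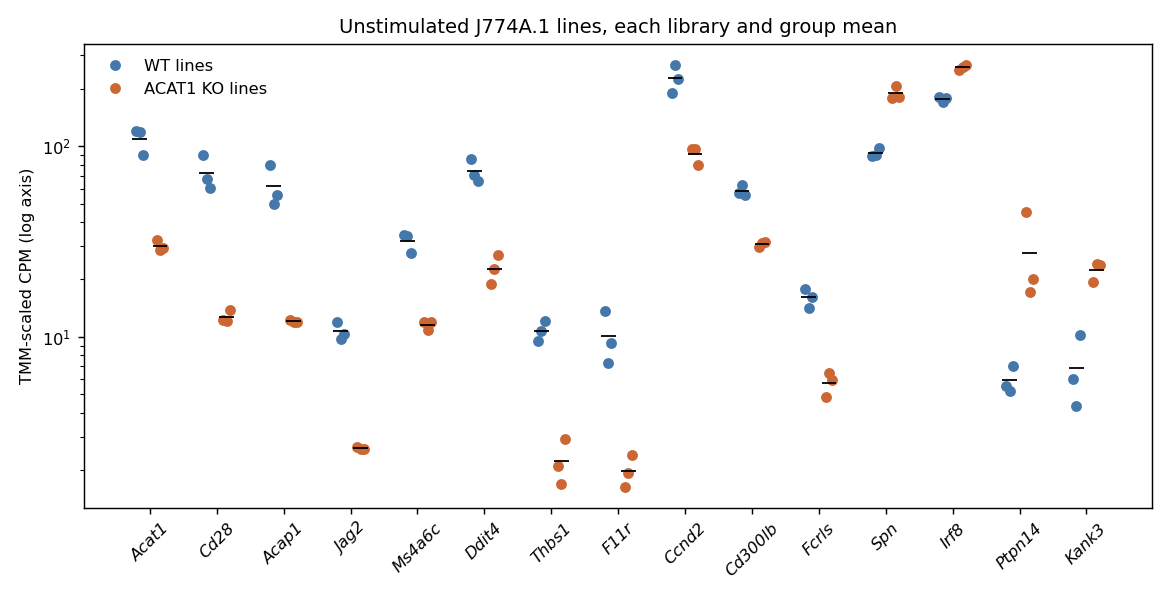
TMM-scaled CPM on a log axis for 15 genes named in the text, in the 3 WT (blue) and 3 ACAT1 KO (orange) unstimulated lines, with a black bar at each group mean. The groups do not overlap for any gene shown, and KO 1 stands above the other KO lines for Ptpn14 at 45.1 CPM.

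The metabolic genes next to the ACAT1 reaction come first. Of 27 tested genes of ketone body and branched-chain amino acid breakdown, none passed the adjusted threshold in either direction. At unadjusted p under 0.05, 5 were higher and 4 lower (33.3%, against 19.7% of all genes), and the median log2 fold change of the list was -0.042, against 0.0035 for all genes. The members with the smallest p were Bckdk, the kinase that switches off branched-chain keto acid oxidation (0.22, standard error 0.0551, adjusted p = 0.0959), and Ivd, which oxidises isovaleryl-CoA (0.31, adjusted p = 0.122). The 36 genes of fatty acid oxidation also held no member past the adjusted threshold, with 5 higher and 2 lower at the unadjusted one and a median of 0.057. Acaa2, the mitochondrial thiolase of that pathway, came closest at 21.5, 20.1 and 21.5 CPM in WT and 15.6, 16.8 and 16.3 CPM in KO lines (log2 fold change -0.37, standard error 0.0696, adjusted p = 0.0532).

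Among 42 genes of acetyl-CoA supply and the TCA cycle, 1 rose and 1 fell, with 4 higher and 4 lower at the unadjusted threshold and a median of -0.0067. Cs, the citrate synthase that joins acetyl-CoA to oxaloacetate, was at 274, 293 and 255 CPM in WT and from 191 to 210.2 CPM in the 3 KO lines (log2 fold change -0.45, standard error 0.0743, adjusted p = 0.0427). Pdhx, a structural subunit of pyruvate dehydrogenase, rose by 0.49 (standard error 0.082, adjusted p = 0.0442). Both genes lie in chromosome segments whose genes moved together, described below. Glycolysis and lactate export held 1 change among 27 genes, the fall of Hif1a, the hypoxia-inducible transcription factor (-0.55, standard error 0.0877, adjusted p = 0.0403), which is also in such a segment. The list's median was -0.0079.

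Cholesterol synthesis had the largest share of members past the unadjusted threshold among the 7 metabolic lists. Of 25 tested enzymes and regulators, 15 were lower and none higher at unadjusted p under 0.05, against 9.93% and 9.73% of all genes. The median log2 fold change was -0.31, and 21 of the 25 were below 0. After the adjustment 3 of them had fallen. Hmgcs1, the cytosolic synthase that makes HMG-CoA, had 50.5, 71.4 and 59.6 CPM in WT and 38.4, 36.1 and 35.4 CPM in KO lines (log2 fold change -0.72, standard error 0.124, adjusted p = 0.0455). Hsd17b7, a 3-ketosteroid reductase of the late pathway, was at 34.5, 36.9 and 32.9 CPM against 26.9, 26.2 and 26.6 CPM (-0.39, standard error 0.0648, adjusted p = 0.0442). In both, the highest KO line was below the lowest WT line. Fdft1, squalene synthase, fell by 0.39 (standard error 0.0703, adjusted p = 0.0499). Part of its exonic sequence overlaps coding exons of the other strand.

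The other 12 members at the unadjusted threshold include, named after their values were seen, Sqle, Nsdhl, Stard4, Cyp51, Mvd, Lss, Idi1, Insig1, Fdps, Srebf2 and Msmo1. The log2 fold changes of these named members lay between -0.56 for Sqle, squalene epoxidase, and -0.25 for Msmo1. Srebf2, which encodes the transcription factor of the pathway, was at -0.34. The median of the list stayed between -0.36 and -0.26 whichever library was left out, and was -0.33 within WT 1, WT 2 and KO 2 and -0.22 within WT 3, KO 1 and KO 3. Over the list, the 3 WT libraries had median levels of 0.095, 0.17 and 0.097 log2 units above the mean of the 6 libraries, and the KO libraries were at -0.025, -0.18 and -0.20. With offsets for gene length and GC content the list held 9 lower members at the unadjusted threshold, 0 at the adjusted one, and a median of -0.23. Without chromosome 12 and distal chromosome 2 in the fit, 0 of its members passed the adjusted threshold. None of its 3 adjusted calls held in most of the fits that left out a library. No member of this list lay in the segments described below.

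**Figure D2:**
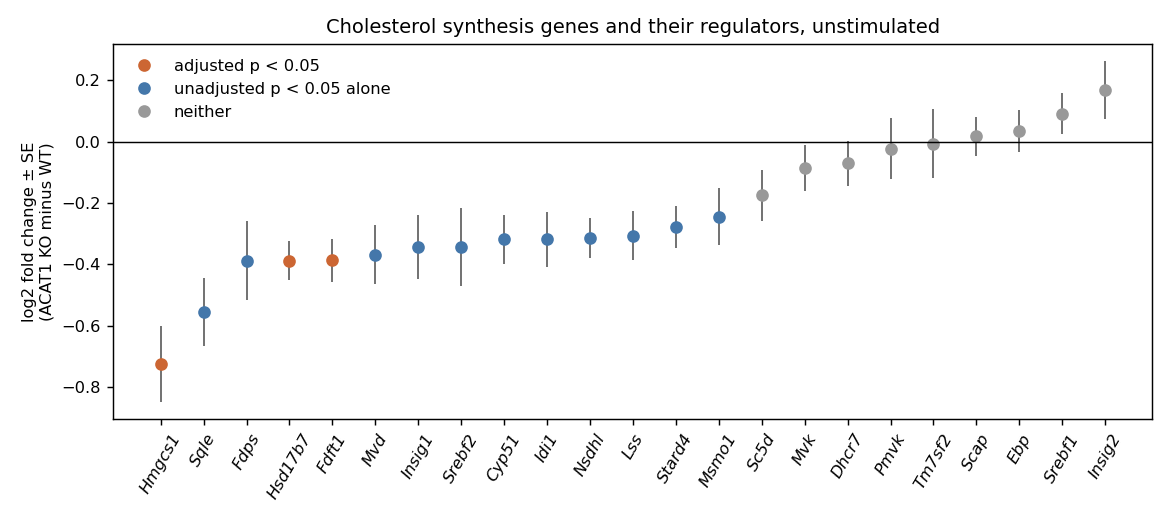
Log2 fold change, ACAT1 KO minus WT, with its standard error for 23 of the 25 tested cholesterol synthesis genes and regulators, coloured by the threshold each passed. Hmgcs1 is lowest at -0.72, and 19 of 23 points are below 0.

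The promoters of the 2 synthesis enzymes with the smallest adjusted p in the RefSeq promoter table show the letters discussed next. Each window runs from 250 bases before to 50 bases after the RefSeq start in GRCm38.p6, on the gene's strand. Capitals mark CCAAT on either strand, the core letters bound by NF-Y, and TCACNCCAC on either strand, the core of a sterol regulatory element.
Hmgcs1, chr13:119690101-119690400, plus strand: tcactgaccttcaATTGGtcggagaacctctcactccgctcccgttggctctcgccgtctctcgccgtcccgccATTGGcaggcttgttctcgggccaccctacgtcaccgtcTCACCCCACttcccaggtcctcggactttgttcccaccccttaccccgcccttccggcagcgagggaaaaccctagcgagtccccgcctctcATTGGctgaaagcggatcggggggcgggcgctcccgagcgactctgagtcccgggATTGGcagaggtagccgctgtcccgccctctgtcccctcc
Hsd17b7, chr1:169969156-169969455, minus strand: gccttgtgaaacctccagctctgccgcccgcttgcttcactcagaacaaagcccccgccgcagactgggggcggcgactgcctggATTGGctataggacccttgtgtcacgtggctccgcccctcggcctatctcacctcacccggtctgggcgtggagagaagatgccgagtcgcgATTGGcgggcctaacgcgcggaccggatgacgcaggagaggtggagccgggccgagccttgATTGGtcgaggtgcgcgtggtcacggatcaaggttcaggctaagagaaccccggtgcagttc

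The Hmgcs1 window held 4 matches to CCAAT and 1 to TCACNCCAC, and the Hsd17b7 window held 3 and 0. Of the 26 genes of the list, 19 had a promoter in the table, and 18 of these (94.7%) held CCAAT on either strand in at least 1 window, against 41.1% of 27025 genes in the table. TCACNCCAC was found for Hmgcs1 alone among the 19, against 1.44% of all genes. The 27025 genes are all those in the promoter table, whether or not they were tested here, and are not matched to the list. The matches are of letters, not measured binding.

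The 81 nuclear genes of the respiratory chain had small differences, mostly upward. Of these genes 16% passed the unadjusted threshold, below the 19.7% of all genes. At the unadjusted threshold 12 were higher and 1 lower, and 1 rose after adjustment, Ndufs3, a core subunit of complex I that lies in a segment described below (0.48, standard error 0.0852, adjusted p = 0.0477). The list's median was 0.12 and stayed between 0.036 and 0.19 whichever library was left out. With a term for WT 1, WT 2 and KO 2 in the fit, the list's median was 0.050. Its lowest levels were those of WT 2 and KO 2, at -0.21 and -0.083 log2 units from the mean of the 6 libraries, against -0.024 to 0.13 in the others. The 13 mitochondrially encoded genes had no member past either threshold. Their median of -0.43 changed sign to 0.32 without WT 1, the library with the highest mitochondrial share. Their level in WT 1 was 1.29 log2 units above the mean of the 6 libraries, against -0.62 to 0.039 in the other 5. Cytosolic ribosomal protein genes had 4 of 81 members higher and 1 lower at the unadjusted threshold, and none passed the adjusted one.

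The Fc, CD300 and complement receptors held more lower than higher members. These are surface proteins through which macrophages sense antibodies, lipids on dying cells and complement fragments. Of 25 tested, 4 fell and 1 rose, and 11 were lower and 3 higher at the unadjusted threshold, with a median of -0.34. That median ranged from -0.46 without KO 1 to -0.18 without KO 2. Cd300lb, an activating receptor, had 56.6, 62.6 and 55.2 CPM in WT and 29.7, 31.0 and 31.5 CPM in KO lines (log2 fold change -0.92, standard error 0.0675, adjusted p = 0.00975). Fcrls, an Fc receptor-like scavenger protein, had 17.8, 14.2 and 16.2 CPM against 4.87, 6.43 and 5.92 CPM (-1.49, standard error 0.144, adjusted p = 0.0159). Cd300lf, an inhibitory receptor of the same family, fell from 51.0, 49.3 and 58.9 CPM to 32.5, 29.1 and 27.1 CPM (-0.84, standard error 0.0973, adjusted p = 0.0217). For each of these the KO lines were tightly grouped below the WT lines. The fourth gene that fell, the high-affinity IgG receptor Fcgr1 (-0.69), is also in the interferon list. Sirpa, the receptor of the CD47 signal, rose by 0.45 and lies on distal chromosome 2. These last 2 were named after their values were seen.

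Among 30 tested genes of macrophage identity, 1 rose (Irf8) and 2 fell (Adgre1 and Fcgr1). At the unadjusted threshold 6 were higher and 4 lower (33.3%), and the list's median was 0.16. Adgre1, which encodes the F4/80 antigen, was at 71.8, 91.2 and 83.1 CPM in WT and 49.7, 51.1 and 42.1 CPM in KO lines (log2 fold change -0.78, standard error 0.112, adjusted p = 0.0368). Spi1, which encodes the lineage factor PU.1, was at 281 to 329 CPM in WT and 361 to 422 CPM in KO lines without passing the threshold (0.36, adjusted p = 0.10), and it lies on distal chromosome 2. Cx3cr1, the fractalkine receptor, had the largest difference of the list, 20.3, 39.9 and 49.9 CPM against 91.5, 122.6 and 78.0 CPM. Its log2 fold change of 1.41 had a standard error of 0.328 and did not pass either (adjusted p = 0.0847), given the spread within both groups.

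Lysosomal genes leaned upward, with 15 of 38 members higher and 4 lower at the unadjusted threshold and a median of 0.078. After adjustment 1 had risen, Arsb, the arylsulfatase that digests dermatan sulfate, from 440, 490 and 393 CPM to 662, 760.1 and 631 CPM (log2 fold change 0.63, standard error 0.109, adjusted p = 0.0455). Ctsa, cathepsin A, was at 0.49 (adjusted p = 0.0733) and Npc2, the lysosomal cholesterol carrier, at -0.45 (adjusted p = 0.0686). Both lie in the segments described below. Among 25 scavenger receptor and lipid handling genes only Fabp5, a fatty acid binding protein, passed the adjusted threshold, with 73.2, 64.4 and 62.2 CPM in WT and 40.2, 33.0 and 42.2 CPM in KO lines (-0.79, standard error 0.11, adjusted p = 0.0368). Lipa, the lysosomal acid lipase that frees cholesterol from its esters, was at 0.41 (adjusted p = 0.0721).

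Among costimulatory and adhesion molecules, a few genes had large changes. Of 23 genes of MHC class II and costimulation, 3 fell and 1 rose. Besides Cd28, these were Havcr2, which encodes the checkpoint receptor TIM-3 (8.48, 9.08 and 9.34 CPM in WT, 4.33, 5.10 and 5.13 CPM in KO lines, -0.89, adjusted p = 0.0368), and Cd276, which encodes B7-H3 (-1.50, adjusted p = 0.039). Cd84, a SLAM family receptor named after its value was seen, rose by 1.01. Of 28 integrins and adhesion molecules, 4 fell and 1, Spn, rose. Itga6, the laminin-binding integrin chain, had 33.6, 38.1 and 38.1 CPM against 22.6, 24.02 and 22.3 CPM (-0.67, standard error 0.0748, adjusted p = 0.0199). F11r, the junctional adhesion molecule JAM-A, had 13.6, 7.31 and 9.31 CPM against 1.63, 1.94 and 2.40 CPM (-2.34, standard error 0.272, adjusted p = 0.0222). The others, named after their values were seen, were Itgb7 (-1.87) and Itgav (-0.59). The medians of the 2 lists, 0.10 and -0.071, were small beside these changes.

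In the list of matrix genes, proteases and inhibitors, 2 of 33 members fell and none rose. Thbs1, the matricellular protein thrombospondin 1, was at 9.53, 10.7 and 12.1 CPM in WT and 2.11, 1.69 and 2.92 CPM in KO lines (-2.27, standard error 0.228, adjusted p = 0.0162). Mmp8, a collagenase, was at 2.496, 2.28 and 2.19 CPM against 0.72, 0.56 and 0.78 CPM (-1.75, standard error 0.194, adjusted p = 0.0199). Thbs1 lies on distal chromosome 2, where most genes differed the other way. The groups were well separated for both genes.

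Secreted signals and their receptors had members past the unadjusted threshold in both directions. Of 35 cytokines and chemokines, 1 fell, Osm, a cytokine of the IL-6 family (90.02, 70.8 and 68.1 CPM in WT, 48.8, 49.0 and 48.2 CPM in KO lines, -0.65, adjusted p = 0.0442), and 9 were higher and 7 lower at the unadjusted one (45.7%). The list's median of 0.14 turned to -0.19 without KO 1. Of 36 cytokine receptors 1 fell, the IL-7 receptor chain Il7r (-1.40, standard error 0.237, adjusted p = 0.0442), and 10 were lower and 4 higher at the unadjusted threshold (38.9%). Of 21 chemoattractant receptors none passed the adjusted threshold, and 5 were higher and 5 lower at the unadjusted one (47.6%). Those with the smallest p were the formyl peptide receptor Fpr2, at 2.79, 2.96 and 11.3 CPM in WT and 24.7, 34.6 and 31.7 CPM in KO lines (2.40, standard error 0.554, adjusted p = 0.0828), and Cxcr4, at 72.8, 118 and 124 CPM against 49.4, 43.4 and 54.3 CPM (-1.10, adjusted p = 0.0524). In both, a single WT line stood apart from the other WT lines. No complement component passed either threshold among 12, and of 30 Toll-like receptor pathway genes only Tab1, an activator of the kinase TAK1, fell (-0.58, adjusted p = 0.0368).

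Genes of signalling, growth and stress also held single changes. In the Notch list, 1 of 30 members fell, Jag2, and the target gene Hes1 was at 21.3, 9.27 and 10.1 CPM in WT and 4.19, 4.71 and 3.67 CPM in KO lines (-1.69, standard error 0.332, adjusted p = 0.0591). The list's median was -0.023. Of 37 immediate early genes and dual-specificity phosphatases, 2 fell. They were Nr4a1, a nuclear receptor induced by activating signals (28.1, 16.2 and 16.7 CPM in WT, 7.38, 7.30 and 5.69 CPM in KO lines, -1.58, adjusted p = 0.039), and the ERK phosphatase Dusp5 (71.8, 40.3 and 36.4 CPM against 20.4, 15.8 and 14.01 CPM, -1.56, adjusted p = 0.0477). In both, WT 1 was the highest library, and the median level of the whole list was 0.39 log2 units above the mean of the 6 libraries in WT 1, against -0.20 to 0.061 in the others.

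The cell cycle list of 57 genes had 3 members that rose and 2 that fell, with 15 higher and 6 lower at the unadjusted threshold and a median of 0.13. That median was 0.050 without WT 1, the library with the lowest level of the list (-0.17). It was 0.21 within WT 1, WT 2 and KO 2, 0.024 within WT 3, KO 1 and KO 3, and 0.0081 after LPS. E2f1, a transcription factor of S phase genes (0.47, adjusted p = 0.0368), and Bub1, a kinase of the spindle checkpoint (0.62, adjusted p = 0.039), rose and lie on distal chromosome 2. The CDK inhibitor Cdkn1a rose by 0.35 and the polymerase subunit Pola1 fell by 0.80, both named after their values were seen. Ccnd2 was the other gene that fell. Among 40 NRF2 targets and antioxidant genes 1 fell, Osgin1, an inhibitor of growth induced by oxidative stress (40.5, 38.5 and 43.8 CPM in WT, 27.3, 21.5 and 24.7 CPM in KO lines, -0.74, adjusted p = 0.036). Among 44 genes of the integrated stress and unfolded protein response only Ddit4 changed. None of 34 BCL2 family and death signalling genes did. Nearest among the lower ones was Bmf, which lies on distal chromosome 2 (-1.11, adjusted p = 0.065). Nearest among the higher ones was Bax, a pore-forming activator of apoptosis (0.43, adjusted p = 0.0686).

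Chromatin genes were examined because acetyl-CoA is the acetyl donor for histones. Of 52 writers, erasers and readers of lysine acetylation, 1 rose and 1 fell. Hdac7, a class IIa deacetylase, was at 0.47, 0.56 and 0.37 CPM in WT and 1.30, 1.36 and 1.03 CPM in KO lines (1.41, standard error 0.233, adjusted p = 0.0441). Ncoa1, an acetyltransferase coactivator on chromosome 12, fell by 0.65 (standard error 0.117, adjusted p = 0.0478). The list's median was -0.044. Histone genes had the lowest median of all lists, -0.51 over 47 genes, with 11 lower and 1 higher at the unadjusted threshold and none past the adjusted one. KO 2 had the lowest level of the list, -0.49 log2 units against the mean of the 6 libraries, and without it the median was -0.29. It was -0.78 within WT 1, WT 2 and KO 2 and -0.16 within WT 3, KO 1 and KO 3. Histone genes are near-identical copies whose reads are hard to divide, and most of their transcripts lack the poly(A) tail.

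Solute carriers had 219 tested members, 4 of which rose and 5 fell, with 34 higher and 30 lower at the unadjusted threshold and a median of 0.014. Slc44a1, a choline transporter, was at 45.5, 36.9 and 29.7 CPM in WT and 18.3, 18.8 and 15.9 CPM in KO lines (-1.08, standard error 0.158, adjusted p = 0.039). Slc25a45, of the mitochondrial carrier family, rose from 55.2, 51.6 and 53.3 CPM to 70.0, 75.7 and 72.1 CPM (0.44, standard error 0.0578, adjusted p = 0.0311). The member with the smallest p, Slc9a3r1, encodes a scaffold of transporters rather than a carrier (-0.63, adjusted p = 0.0189). No gene of 15 purinergic and adenosine receptors passed the adjusted threshold.

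**Figure D3:**
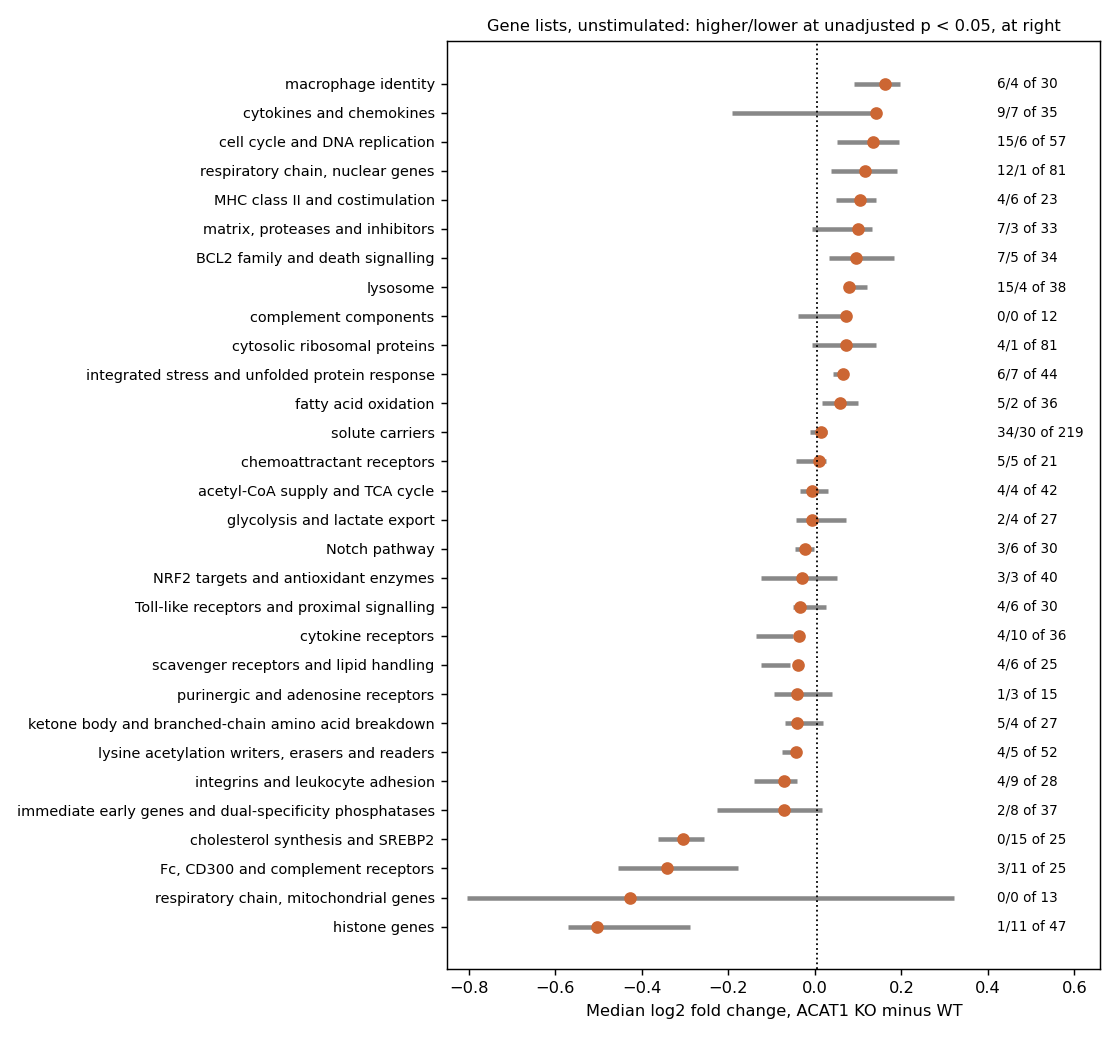
Median log2 fold change, ACAT1 KO minus WT, of 30 gene lists (orange points), with the range of that median over the 6 fits that each left out 1 library (grey bars), the median of all genes (dotted line) and, at right, the members higher and lower at unadjusted p under 0.05. Cholesterol synthesis, at -0.31, and the histone genes, at -0.51, are among several lists that keep their sign in every such fit. The mitochondrially encoded genes are among those that span 0.

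Genes were then arranged by position, since many of the called genes shared chromosomes. In 240 windows of 10 Mb with at least 20 tested genes, the median log2 fold change exceeded 0.2 in size in 22, and 20 of these lay in 3 segments. The segments are the whole of chromosome 12 with 585 genes, chromosome 2 from 90 Mb with 709 genes, and chromosome 10 from 110 Mb with 166 genes. Their bounds were set after values were seen, so their medians are given as a description.

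Genes of distal chromosome 2 were higher in the KO lines, with a median of 0.29, and 67 of 709 rose while 2 fell. Chromosome 12 had a median of -0.26, with 39 genes that fell and none that rose, and 485 of 585 genes below 0 against 49.3% of all genes. The end of chromosome 10 had a median of -0.31, with 13 that fell, 1 that rose, and 144 of 166 genes below 0. The rest of the genome had a median of 0.0043 over 14980 genes, which pools smaller shifts of both signs. Chromosome 15 had a median of -0.097, with 443 of 638 genes below 0, 19 that fell and 1 that rose. Chromosome 1 had a median of -0.0695, with 677 of 1090 genes below 0, 20 that fell and 4 that rose. Chromosome 11 leaned upward, with a median of 0.056. Cd28, Neurl3 and F11r lie on chromosome 1, and Igfbp6, Il7r and Nr4a1 on chromosome 15. On chromosome 10 the window from 90 to 100 Mb had a median of 0.0070 over 46 genes, the next held fewer than 20 genes, and those from 110 and 120 Mb had -0.31 and -0.30.

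All 3 lines of a genotype shared these shifts. Over the chromosome 12 genes, the WT libraries stood 0.18, 0.13 and 0.079 log2 units above the mean of the 6 and the KO libraries at -0.12, -0.12 and -0.14. On distal chromosome 10 the WT libraries were at 0.15, 0.19 and 0.070 and the KO libraries at -0.12, -0.14 and -0.16. Distal chromosome 2 had the opposite order, with -0.18, -0.17 and -0.069 in WT and 0.15, 0.15 and 0.15 in KO libraries. WT 3 was the WT library nearest to the KO lines in each segment, and the groups did not overlap in any.

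**Figure D4:**
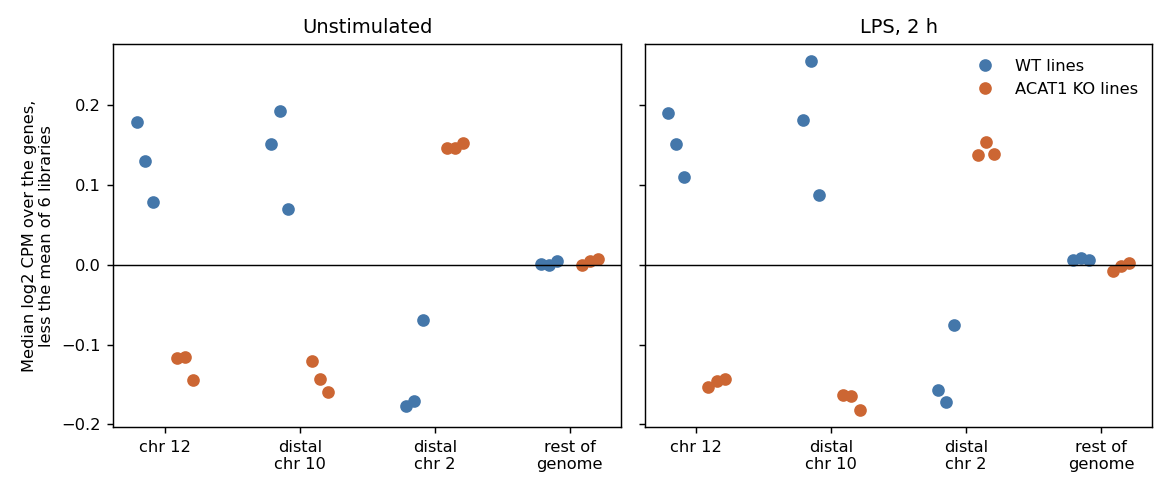
Median log2 CPM, relative to the mean of the 6 libraries of a state, over the genes of 3 chromosome segments and of the rest of the genome, in each WT (blue) and ACAT1 KO (orange) library, unstimulated at left and after LPS at right. WT and KO libraries separate in all 3 segments in both states, with unstimulated distal chromosome 10 at 0.070 to 0.19 in WT and -0.16 to -0.12 in KO libraries.

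These positions bear on the named genes. Of the 122 genes that rose, 67 lay on distal chromosome 2, 1 on distal chromosome 10 and 54 in the rest of the genome. Of the 162 that fell, 36 lay on chromosome 12, 12 on distal chromosome 10, 2 on distal chromosome 2 and 112 elsewhere. Among the 8 higher genes with the smallest p, Dnaaf9, Ldlrad3, Arhgap1, Acp2, Crls1 and Eif3j1 all lay on distal chromosome 2, with log2 fold changes from 0.46 for Arhgap1, a GTPase-activating protein, to 1.06 for Ldlrad3, a membrane receptor. Less the median of their segment, these differences were 0.16 to 0.76. The change of Cs was -0.15 beyond its segment's median, that of Pdhx 0.20, that of Ndufs3 0.18, and that of Hif1a -0.29. Jag2 and Thbs1 stood far outside their segments, at -1.77 and -2.56. Fitting the genome without chromosome 12 and distal chromosome 2 left 74 genes past the adjusted threshold, and without the 3 segments 71.

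Most of the 284 genes differed in the same direction after LPS, in libraries that the comparison above did not use. The labels number those lines 1 to 3 as well but do not say whether they are the same lines. WT 3 was again the WT library nearest to the KO libraries in each of the 3 segments after LPS. If the lines are the same, any difference between them would recur, so the values after LPS are not an independent repeat. Of the 284 genes, 276 had the same sign after LPS and 221 passed the adjusted threshold there in the same direction, where 15.1% of all genes passed in either direction. Among the 122 higher genes, 92 were called higher again, against 5.93% of all genes, and among the 162 lower genes 129 were called lower again, against 9.12%. Cd28 was at -3.29, Acap1 at -2.38, Jag2 at -1.68, Spn at 1.04 and Ptpn14 at 2.64 after LPS, all past the threshold. Adgre1, Osm, Nr4a1 and Osgin1 were at 0.058, -0.21, -0.36 and 0.93 after LPS and did not pass it. Irf8 was the only gene called in opposite directions, at 0.55 without LPS and -0.65 after it. Cholesterol synthesis genes had a median of -0.21 after LPS, with 6 called lower and none higher. Hmgcs1, Hsd17b7 and Fdft1 were not among the 6 (adjusted p after LPS = 0.149, 0.0811 and 0.178). The segment medians after LPS were 0.28 for distal chromosome 2, -0.29 for chromosome 12 and -0.35 for distal chromosome 10.

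**Figure D5:**
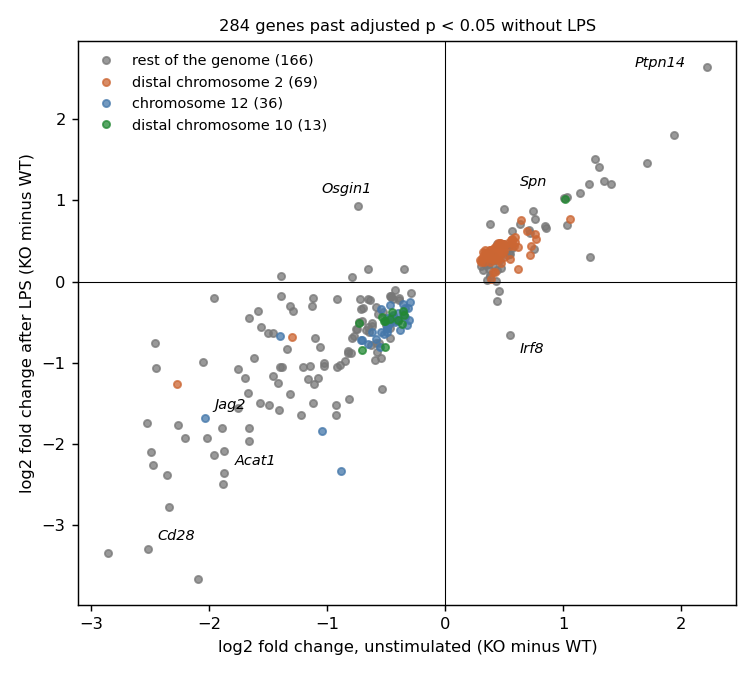
Log2 fold change, ACAT1 KO minus WT, of the 284 called genes outside the interferon list, without stimulation (horizontal axis) and after LPS (vertical axis), coloured by chromosome segment with gene numbers in brackets. Points in the lower left and upper right quadrants, 276 genes, have the same sign in both states, and Irf8 is at 0.55 and -0.65.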

How the data were processed

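Counts per gene, as whole numbers and not normalized, were deposited by the authors in 1 table per state. Per the labels and the paper, reads were trimmed with Trimmomatic 0.33, aligned to GRCm38 with HISAT2 and quantified with StringTie. How whole counts were made, and whether strand was used, is not given in the sources used here. Of the 284 called genes described, 12 have at least 10% of their exonic bases in coding exons of the other strand, Fdft1, Acp2 and Eif3j1 among them. The deposited fold changes, test values and 12 columns of log2 values were not used. After 59 repeated entries were dropped, 17544 genes remained. All have 4 or more counts in 5 or more of the 6 libraries, so a gene silent in 1 genotype can be missing.

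Filtering by filterByExpr left 16440 genes (16483 after LPS), which were scaled by TMM and tested with edgeR 4.0.16 (quasi-likelihood, two-sided, R 4.3.3). The common biological coefficient of variation was 0.285, and 0.108 after LPS. Replicate libraries differed by more than sampling noise (chi-square per degree of freedom at least 31.7). P-values measure the spread between libraries of the same genotype. Without LPS, that spread holds differences between lines together with any between the sets of libraries described above. Those sets differed in counts on noncoding genes inside exons of the other strand, and the main fit had no term for them. The tests were tried on simulated counts. Alternatives were DESeq2 1.42.0, limma-voom 3.58.1, other scalings and filters, robust dispersion, covariates, and each library left out. Coordinates are from GENCODE for GRCm38.

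The members and the 36 gene lists were chosen with earlier results of these data known. Named were protein-coding genes outside the interferon list: per direction, the 8 with the smallest p and the 8 with the largest change at a mean of at least 1 CPM among those past the adjusted threshold, up to 3 per list at unadjusted p under 0.05, Acat1 and 5 macrophage markers. The text gives only some of these 113 genes, and a few list members are counted but not reported singly here.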

Additional observations from a re-analysis of the deposited data

Results flagged for a closer look

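Irf8 and Sesn2 were marked because every KO library lay above every WT library without stimulation and below every WT library after LPS. For Irf8 the log2 fold change was 0.553 without stimulation and -0.654 after LPS, and it passed the adjusted threshold of edgeR in both states. For Sesn2, a stress-induced regulator of mTORC1, it was 0.249 and -0.654, and it passed in neither (adjusted p = 0.0751 and 0.115). The difference between the states was not tested for either gene.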

How the results depend on the processing

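The count of 314 genes past the adjusted threshold changed most with the libraries and the tool. It was 1721 with DESeq2, 475 with at least 10 counts in every library, 522 with robust dispersion, 1353 with all 12 libraries in a single fit, and 664 with a term for WT 1, WT 2 and KO 2. It was 94 with offsets for length and GC content, 74 without chromosome 12 and distal chromosome 2, and 71 without distal chromosome 10 as well, which was chosen after seeing the data. Leaving out 1 library gave 7 to 522. It was within 1.5 times with limma-voom, relative log expression, upper-quartile scaling and no filter (287 to 311). The cause was not tested, apart from the fewer genes or libraries by construction.

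Deviations of same-numbered WT and KO libraries from their group means correlated at -0.436, 0.73 and 0.727. WT 1 and WT 2 correlated best with KO 2 (0.57 and 0.73), and WT 3 with KO 3 (0.727, against 0.689 with KO 1). These correlations follow the 2 sets of libraries described above, so they cannot decide whether the replicate numbers denote pairs. With the replicate block the count was 151, and 145 with the block and the offsets, and 0 of the cholesterol list passed in either.

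Of 61 named genes past the threshold, none changed direction in any alternative. For the fits that left out a library this was largely fixed beforehand, since the groups of these genes do not overlap. DESeq2 kept 61, limma-voom 53, the offsets 32, and fits that left out a library 6 to 52. Ptprc changed sign to 0.055 with the offsets and 0.051 with the block and the offsets. After LPS, leaving out 1 library gave -0.013 to 0.105 for Adgre1 and -0.614 to 0.295 for Nr4a1, and WT replicate 1 was the library whose absence turned both. How far depth limits the calls was not tested.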
